A study of Mus musculus with 8 samples.

Results

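The genes described here are 35 mouse genes of amino acid stress and transfer RNA charging, chosen by name: the transcription factor Atf4 with its partners and regulators, the enzymes that make serine, folate-bound carbon units, asparagine and proline, and 12 cytosolic aminoacyl-tRNA synthetases with the tRNA export factor Xpot. Of the 35, 34 had a row among the 19703 genes of the table and 32 passed a minimum mean of 10 normalized counts. Phgdh, the first enzyme of serine synthesis, was not analysed here. Atf3 and Chac1 lay under the minimum and are given by their read counts.

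The RNA came from regulatory T cells (Tregs, titled WT in every sample, with the strain label Foxp3-GFP), which were sorted from reporter mice whose Foxp3-expressing cells carry green fluorescent protein. The sorted cells were cultured on beads coated with anti-CD3 and anti-CD28, with IL6, IL23 and IL1B, a mix that favours Th17 cells, and RNA was sequenced on day 6. One set of cultures received FcCD70 and the other was untreated; beads and cytokines were shared by both. The series title names CD27 signaling as the question; CD27 is a costimulatory T cell receptor and CD70 binds it. The labels name 4 samples per group, numbered 1 to 4 in each; columns for FcCD70 1 to 3 and untreated 1 to 4 were used, and FcCD70 4 was not analysed here. In all 8 samples the treatment field contradicts the title. Groups follow the titles, which the column names match, and each direction given here would turn round if the titles were wrong. No label ties the samples to separate mice or cultures, so p-values reflect only how these samples scatter, which may be technical scatter. No age or sex is given.

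The FcCD70 libraries held 18183470 to 23359331 reads in genes and the untreated libraries 18159685 to 23527899. The 7 Treg and T cell genes (Foxp3, Il2ra, Ctla4, Ikzf2, Tnfrsf18, Cd4 and Cd3e) summed to between 58156 and 71725 normalized counts in FcCD70 libraries and between 68126 and 73087 in untreated libraries. Foxp3 itself, the defining factor of these cells, had 5881, 2788 and 5948 normalized counts in FcCD70 libraries 1 to 3 and 6585, 5605.5, 4811 and 5126 in untreated libraries 1 to 4, lowest in FcCD70 2. Defining genes of other cells were low: B cell genes summed to at most 212 in FcCD70 and 270 in untreated libraries, myeloid genes to at most 105 in FcCD70 and 121 in untreated libraries, and NK cell genes to at most 27.0 in FcCD70 and 17.6 in untreated libraries. CD8 T cell genes summed to at most 201 in FcCD70 and 183 in untreated libraries, and the epithelial gene Epcam reached 162 in FcCD70 and 151 in untreated libraries. Dendritic cell genes reached 65.1 in FcCD70 and 26.4 in untreated libraries, mostly through Zbtb46, which had 48.7, 55.0 and 13.2 with FcCD70 and 25.3, 18.2, 24.3 and 14.8 in untreated libraries. The sums cover 4 of 6 myeloid, 3 of 4 NK and 3 of 4 dendritic cell genes looked for, without Lyz2, Itgam, Klra8 and Itgax. Most of the myeloid sum came from Cd68. The part of other cells in the members' values was not tested. In these bulk samples, fewer cells of a type and less RNA per cell cannot be told apart. The library FcCD70 2 stood apart: its correlation with the other libraries over all tested genes was 0.964 to 0.974, where the best pair of libraries reached 0.993. It was the highest or lowest library in 55.7% of all tested genes and in 13 of the 32 tested members (40.6%). Among the members alone it did not stand out. FcCD70 3 was the highest or lowest in 14 members (43.75%), against 26.7% of all genes. FcCD70 1 and untreated 1 were so in 12 members each (37.5%), against 36.8% and 26.7% of all genes. Fold changes without number 2 (both of its libraries left out, with the replicate block) are given beside the main ones where they differ most; that setting was extended to all roles and lists after seeing the data.

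When an amino acid is short, uncharged tRNA activates the kinase GCN2 (Eif2ak4), which phosphorylates eIF2alpha. General translation then slows while translation of Atf4 mRNA goes up, and ATF4 protein, paired with C/EBP proteins such as C/EBPbeta (Cebpb) or C/EBPgamma (Cebpg), switches on genes for amino acid synthesis, uptake and tRNA charging. Because ATF4 is controlled largely at translation, its mRNA is only a partial reading of its activity, and the target genes are read alongside it. Activated T cells are known to use serine and mitochondrial folate enzymes such as SHMT2 and MTHFD2 to supply nucleotide synthesis.

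The DNA letters that ATF4 with a C/EBP partner is known to read, TGATGNAA with N any base, were looked for on both strands in the promoters of these genes (RefSeq starts, GRCm38.p6, from 250 bases before to 50 bases after the start). Of the members, 29 had a promoter in the table, with 31 windows of 300 bases. The synthetases Cars, Lars, Mars, Nars and Wars had no window and were not searched. The letters stood in 10 of the 31 windows (32.3%), of 10 genes, against 1304 of 32851 windows of all genes (3.97%). The share is a description: a match is not a bound site. The 40 bases around each of the 11 matches are printed so that the letters can be read in their setting; binding was not measured here. Each runs 5′ to 3′ on the gene's own strand, with the match in capitals.
Atf3: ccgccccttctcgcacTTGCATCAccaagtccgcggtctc
Trib3: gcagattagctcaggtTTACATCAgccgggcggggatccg
Chac1: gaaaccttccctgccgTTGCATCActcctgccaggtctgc
Asns: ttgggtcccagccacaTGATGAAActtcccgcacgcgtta
Pycr1: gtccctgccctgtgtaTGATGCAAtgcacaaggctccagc
Aars, upstream match: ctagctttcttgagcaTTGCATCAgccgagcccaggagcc
Aars, downstream match: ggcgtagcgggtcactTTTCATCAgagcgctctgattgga
Gars: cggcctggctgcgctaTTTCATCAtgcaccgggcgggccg
Iars: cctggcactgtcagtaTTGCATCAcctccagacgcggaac
Tars: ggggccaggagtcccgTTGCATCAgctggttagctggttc
Yars: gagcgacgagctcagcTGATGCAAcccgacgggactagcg

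Of the 11 matches, 7 read TGATGCAA or its complement TTGCATCA, 3 lay in the TGATG orientation on the gene's strand and 8 on the other strand. The windows are, in GRCm38.p6, chr1:191183420-191183459 for Atf3 (minus strand), chr2:152344023-152344062 for Trib3 (minus), chr2:119351033-119351072 for Chac1 (plus), chr6:7693209-7693248 for Asns (minus) and chr11:120643828-120643867 for Pycr1 (minus). Among the synthetases they are chr8:111033714-111033753 and chr8:111033835-111033874 for Aars (plus), chr6:55037955-55037994 for Gars (plus), chr13:49682121-49682160 for Iars (plus), chr15:11399650-11399689 for Tars (minus) and chr4:129189890-129189929 for Yars (plus). The match in the Asns promoter, the textbook amino acid response element of asparagine synthetase, began 23 bases before the annotated start. The 10 genes spanned nearly the whole range of RNA levels, with Atf3 and Chac1 at the bottom and Gars among the highest. A cyclic AMP response element, TGACGTCA, stood in 1 of the 31 windows (3.23%), that of Ppp1r15a, against 588 of all 32851 windows (1.79%). Where these letters were not found, nothing follows about the factor.

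Levels between genes are given as normalized counts per kilobase of exon (all annotated exons of a gene joined, GENCODE M21). Ddit4, an inhibitor of mTORC1 that stress induces, was highest with a mean of 1858 per kilobase over the 7 libraries, followed by Atf4 with 1590 and by the glycyl-, seryl- and asparaginyl-tRNA synthetases Gars with 1077, Sars with 796 and Nars with 758. The ranges over libraries of Ddit4 (1444 to 2084) and Atf4 (1390 to 2111) overlapped, as did those of Sars (739 to 858) and Nars (685 to 929). Mthfd2, the mitochondrial folate dehydrogenase, was the highest synthesis enzyme with 543. At the low end stood Cebpb with 42.0, the proline synthesis enzyme Pycr1 with 6.69, the glutathione-degrading enzyme Chac1 with 1.70 and the stress transcription factor Atf3 with 1.49. The joined exon length includes long and rarely used isoforms, so a level per kilobase is a lower reading for genes such as Eprs with many annotated exons. Of the 34 genes, 18 have an annotated gene on the opposite strand and 11 an overlapping gene on the same strand; Ddit3 and Mars overlap each other on opposite strands. Reads of such overlaps may be shared, since the strand setting of the counting is not given in the sources used here.

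**Figure D1:**
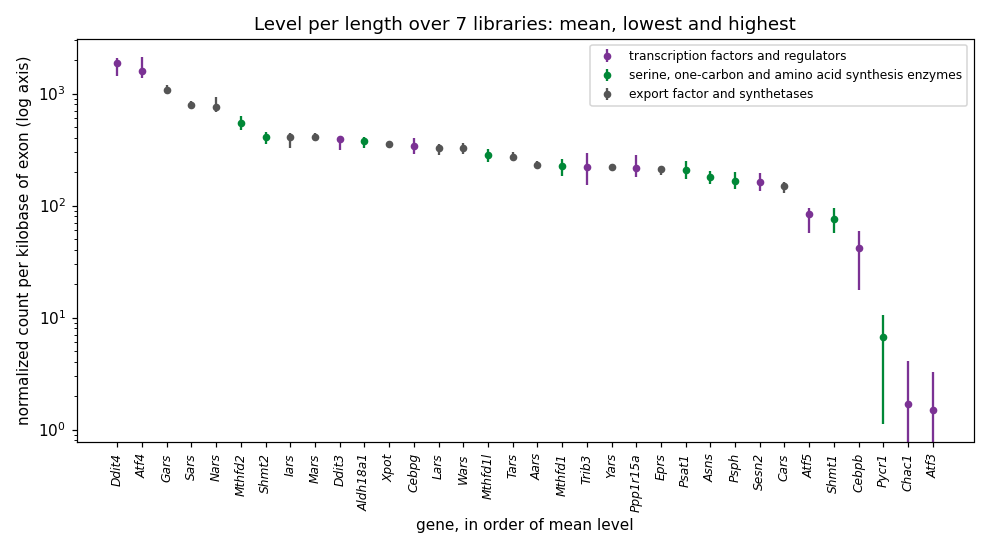
Level of the 34 genes, as normalized counts per kilobase of exon on a log axis, in order of their mean over 7 libraries; points are means, bars run from the lowest to the highest library, and colours mark the 3 roles. The lowest value of Atf3 and of Chac1 is 0 and cannot be drawn on a log axis; Ddit4 and Atf4 lead with 1858 and 1590.

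Atf3 and Chac1, a pair of genes that ATF4 induces under stress, were close to undetected. Atf3 had 4, 4 and 3 reads in FcCD70 libraries 1 to 3, against 3, 0, 1 and 8 reads in untreated libraries 1 to 4. Chac1 had 0, 6 and 0 reads in FcCD70 libraries and 1, 4, 6 and 2 in untreated libraries. A count of 0 allows up to 3 reads, or 2.65 to 3.37 normalized counts per library in the FcCD70 group and 2.61 to 3.30 in the untreated group, by counting error alone. No fold change is given for either gene.

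The 12 synthetases chosen here, with Xpot, had the lowest variation of the 3 roles. Over the 7 libraries, whatever their group, the coefficient of variation (SD over mean) had a median of 6.63% among the 13 export and synthetase genes, 10.9% among the 10 tested synthesis enzymes and 15.7% among the 9 tested regulators, against 14.6% over all 11083 tested genes and 11.4% over the 6757 genes with a mean of at least 500 normalized counts. It lay under 10% in 12 of the 13 export and synthetase genes (92.3%), against 26.2% of all tested genes and 39.3% of those with a mean of at least 500. Over these 7 libraries other synthetases varied more by median, though Kars, one of them, varied by 1.43%. The median was 10.3% among the 11 other cytosolic synthetases and cofactors, with 45.5% of them under 10%. Among the 17 mitochondrial synthetases it was 11.0%, with 41.2% under 10%. Xpot, which carries tRNA out of the nucleus, varied least of the 13 with 1.78%. It had 2139.8, 2080.3 and 2183 normalized counts in FcCD70 libraries, against 2162, 2109, 2182 and 2156 in untreated libraries. Nars varied most among the 13 with 11.3%, through its highest value in FcCD70 2. Without FcCD70 2 the medians were 5.15% for the 13 genes, 7.94% for all 32 members and 11.3% for all genes. This median was not computed for the other synthetases, so their contrast with the 13 holds for all 7 libraries only. Some of them were highest in FcCD70 2, such as Hars (1823, elsewhere at most 1470) and Dars (3200, elsewhere at most 2614). Others, such as Vars and Kars, were highest in another library. Low counts vary more by counting alone, and the coefficient was not tested between roles.

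**Figure D2:**
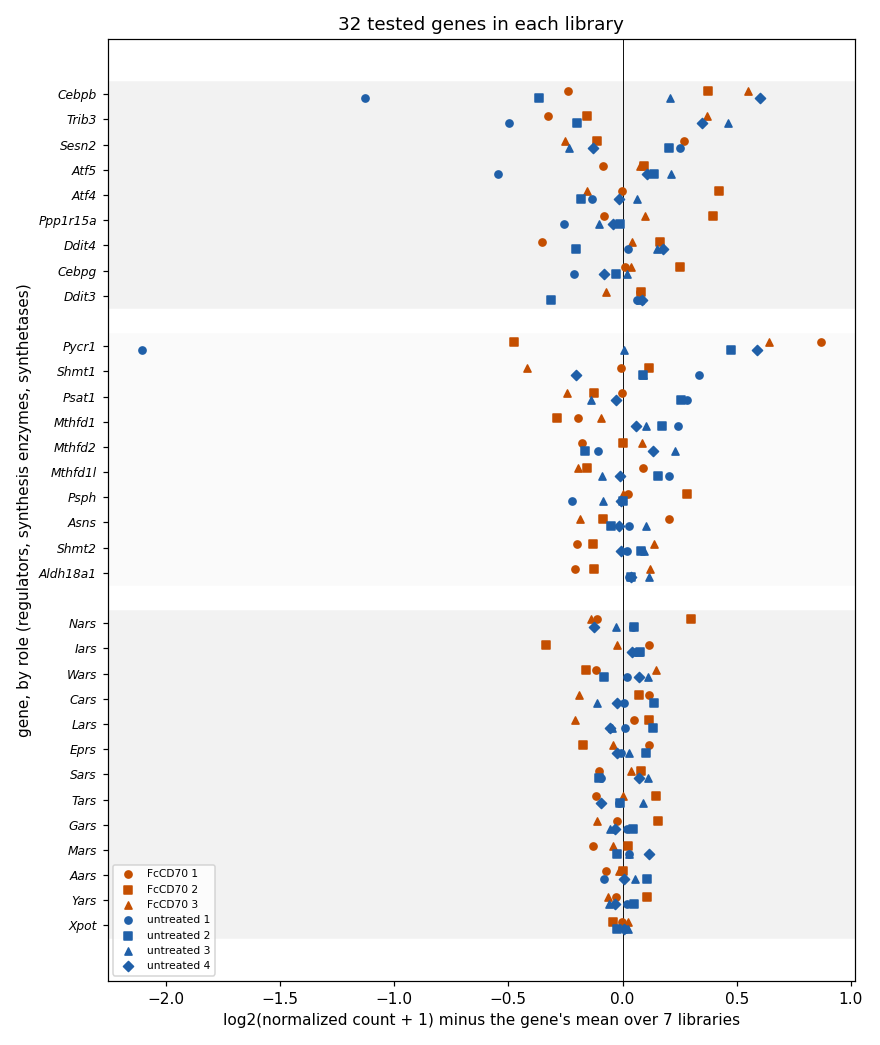
Each of the 32 tested genes in each library, as log2(normalized count + 1) minus the gene's mean over the 7 libraries; colours mark FcCD70 and untreated libraries, symbols mark the replicate number, and genes are grouped by role and ordered by their coefficient of variation. Synthetases cluster near 0, while Pycr1, Cebpb and Trib3 spread widest.

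The main comparison asked whether FcCD70 altered these genes. No gene of the table passed the test and so none of the 32 members did (limma on log2(normalized count + 1) with the replicate number as a block, Benjamini-Hochberg adjusted p under 0.05 over 11083 genes; 0% called). edgeR called 0 genes, DESeq2 called 1 gene that is no member, and the authors' deposited table has 0 of 14728 genes under an adjusted p of 0.05. The means in the authors' table are not those of the 7 libraries used here, so its fit rests on another set of libraries. At an unadjusted p under 0.05, limma had 188 genes (1.7%; 122 of them lower with FcCD70, 1.1%, and 66 higher, 0.596%) and 1 member, Mthfd1, which was lower, and edgeR and DESeq2 had 1 member each. The members' log2 fold changes of FcCD70 over untreated ran from -0.36 to 0.89 with a median of -0.014, against a median of -0.0035 over all tested genes, with 12 above and 20 below 0. Without number 2 the median was -0.046, with 10 above and 22 below 0. FcCD70 was lower in 3 of 3 numbered pairs for 3 members (9.61% of all genes) and higher in 3 of 3 for 4 members (9.03% of all genes). The 95% interval of the fold change lay within 1.5-fold either way for 27 of the 32 members, against 7167 of all 11083 tested genes. Of the 6757 genes with a mean of at least 500 normalized counts, a level that 26 members reached, 6022 had such an interval. The interval bounds the size of a difference that these libraries leave possible. It does not show that the groups are alike. The 5 members with wider intervals were Atf5, Cebpb, Shmt1, Mthfd1 and Pycr1.

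**Figure D3:**
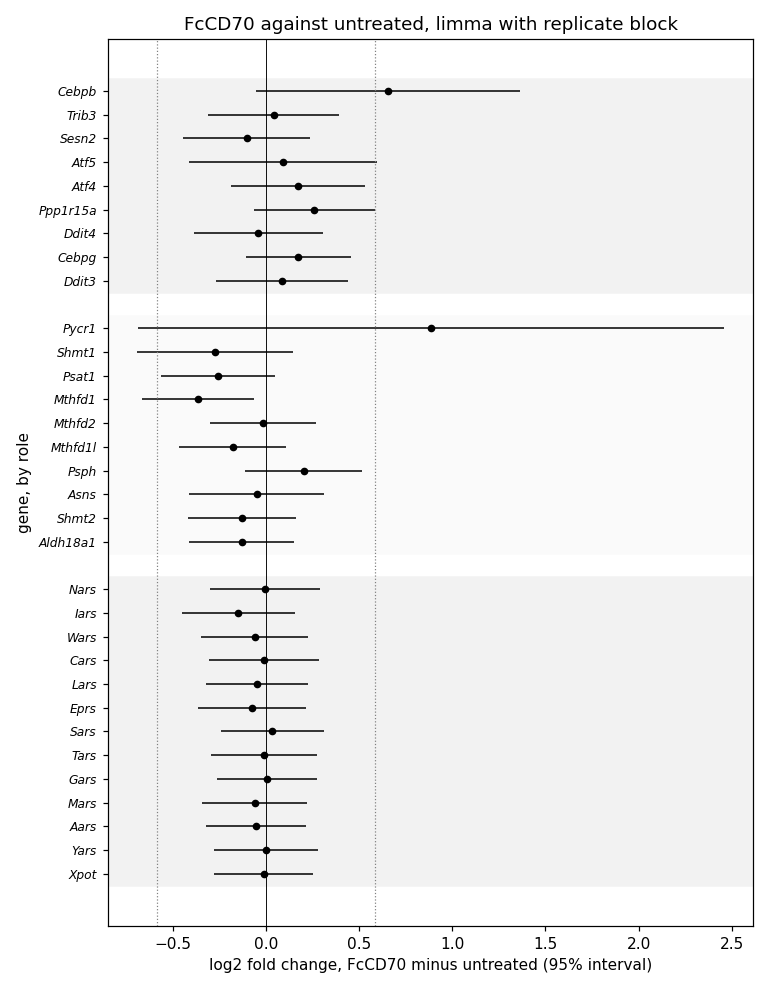
Log2 fold change of FcCD70 over untreated for the 32 tested genes with its 95% interval (limma with the replicate block); dotted lines mark 1.5-fold either way. The interval of Mthfd1 alone leaves out 0, before any adjustment for the number of genes, and Pycr1 has the widest interval.

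Among the 9 tested regulators, 7 fold changes were above 0 and 2 below, with a median of 0.091 on the log2 scale and none past the test. Without number 2 the median was 0.039. Atf4 had 3712, 4978 and 3333 normalized counts in FcCD70 libraries 1 to 3, against 3382, 3278, 3885 and 3674 in untreated libraries 1 to 4. FcCD70 2 was the highest of all and FcCD70 3 the second lowest, so the groups overlapped. Atf4 averaged 4008 ± 861 with FcCD70 (SD, n = 3) and 3555 ± 277 without (SD, n = 4), a log2 fold change of 0.17 with an interval of -0.19 to 0.53, and without number 2 it was -0.043. Ddit3, which encodes the stress factor CHOP, had 702, 703 and 633 normalized counts with FcCD70 and 694, 535, 701 and 706 in untreated libraries. Untreated 2 was the lowest of them; the log2 fold change was 0.088 and, without number 2, -0.065. Trib3, a pseudokinase that ATF4 and CHOP induce and that feeds back on them, had 365, 410.0 and 590.0 with FcCD70 and 324, 398, 629 and 581 in untreated libraries, a log2 fold change of 0.041 with an interval of -0.31 to 0.39, and -0.065 without the replicate block.

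Ppp1r15a, Cebpb and Cebpg were higher in the FcCD70 library of each of the 3 pairs, without passing the test. Ppp1r15a encodes GADD34, which guides the phosphatase that reverses eIF2alpha phosphorylation. It had 599, 833 and 677 normalized counts with FcCD70 and 530.4, 629, 589 and 614 in untreated libraries, and FcCD70 1 lay inside the untreated range. Its log2 fold change was 0.26 with an interval of -0.064 to 0.58, and 0.19 without number 2. Cebpb had 49.7, 76.4 and 86.4 with FcCD70 and 26.4, 45.4, 68.0 and 89.6 in untreated libraries, where the highest value of all was untreated 4. Its log2 fold change of 0.66 had an interval of -0.054 to 1.37 (limma, unadjusted p = 0.0662, adjusted p = 0.9998). Untreated 4 has no FcCD70 partner among the libraries used here and does not enter a fold change fitted with the block. Without the block the log2 fold change of Cebpb was 0.40. Cebpg had 1903, 2249.9 and 1936 with FcCD70 and 1627, 1851, 1916 and 1787 in untreated libraries, a log2 fold change of 0.17 with an interval of -0.11 to 0.45. FcCD70 1 lay just inside the untreated range. Of the remaining regulators, Ddit4, Atf5 and the mTORC1 inhibitor Sesn2 had log2 fold changes between -0.10 and 0.091. Without number 2, Ddit4 was at -0.24, Atf5 at 0.16 and Sesn2 at 0.0025.

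Among the 10 tested synthesis enzymes, 8 fold changes were below 0 and 2 above, with a median of -0.13 on the log2 scale, and -0.11 without number 2. Mthfd1, the cytosolic enzyme that interconverts folate-bound carbon units, was the one member whose FcCD70 libraries all lay below its untreated ones, a pattern that 1.18% of all tested genes showed. Mthfd1 had 862, 809.9 and 924 normalized counts in FcCD70 libraries and 1169, 1111, 1059 and 1027 in untreated libraries. It averaged 865 ± 57.2 with FcCD70 (SD, n = 3) and 1092 ± 61.9 without (SD, n = 4), which is -0.36 on the log2 scale (SE 0.13, 95% interval -0.67 to -0.062). That difference had an unadjusted p of 0.023 and an adjusted p of 0.9998 (limma), so it did not pass the test. The authors' deposited table gives -0.31 with an unadjusted p of 0.0169 (DESeq2) for FcCD70 over untreated, with the sign turned. Its mean for Mthfd1 is 986, against 995 over the 7 libraries used here. The authors' result therefore does not rest on these 7 libraries alone and is not a like-for-like comparison. Without number 2 the log2 fold change was -0.32, and 3 annotated genes on the opposite strand overlap Mthfd1.

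The 2 serine synthesis enzymes with data had fold changes of opposite sign, neither past the test. Psat1, the transaminase of the pathway, had 868, 796 and 734 normalized counts with FcCD70 and 1056, 1038, 789.5 and 851 in untreated libraries. FcCD70 was lower in each of the 3 pairs, but its libraries 1 and 2 exceeded untreated 3, and the log2 fold change of -0.26 had an interval of -0.56 to 0.050. Psph, the phosphatase of the last step, had 721, 862 and 711 with FcCD70 and 609, 710.4, 668 and 706 in untreated libraries. All FcCD70 values lay above all untreated ones (1.34% of all genes did so), by less than 1 count between FcCD70 3 and untreated 2. The log2 fold change of Psph was 0.20 with an interval of -0.11 to 0.52, and it was 0.17 without number 2. Asns, which makes asparagine and is a much-used reading of ATF4 activity, had 559, 458 and 427 with FcCD70 and 495, 469, 521 and 480.4 in untreated libraries. FcCD70 1 was its highest library and FcCD70 3 its lowest, and the log2 fold change was -0.049 with an interval of -0.41 to 0.31.

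The folate enzymes beside Mthfd1 did not pass the test, and Shmt1 had the largest difference among them. Shmt2, the mitochondrial enzyme that takes a carbon unit from serine, had 1113, 1170.4 and 1407 normalized counts with FcCD70 and 1297, 1354, 1363 and 1272 in untreated libraries, a log2 fold change of -0.13 with an interval of -0.42 to 0.16. Its highest library and its lowest library both carried FcCD70. Mthfd2 had 1664, 1884 and 1998 with FcCD70 and 1746, 1681, 2204 and 2065 in untreated libraries, a log2 fold change of -0.016 with an interval of -0.30 to 0.27, and -0.11 without number 2. Shmt1, the cytosolic form, had 291, 317 and 219 with FcCD70 and 369, 311, 311 and 253 in untreated libraries, a log2 fold change of -0.27 with an interval of -0.69 to 0.15, and -0.42 without number 2. Mthfd1l, the mitochondrial formate-releasing enzyme, was lower with FcCD70 in each of the 3 pairs at a log2 fold change of -0.18, and -0.11 without number 2. Pycr1 was too low to read, with 15.7 to 41.4 normalized counts with FcCD70, against 4.40 to 33.9 in untreated libraries, and a log2 fold change of 0.89 with an interval of -0.68 to 2.46, and 1.81 without number 2.

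Proliferation genes lay on the same side as Mthfd1 and Psat1. A sum over 10 of them (Mki67, Top2a, Rrm2, Ccnb1, Cdk1, Pcna, Mcm2, Mcm3, Mcm5 and Mcm7) was 19832, 19514 and 13217 normalized counts in FcCD70 libraries 1 to 3, against 27319, 24162, 13329 and 16058 in untreated libraries 1 to 4. With Myc, all 11 of the list had a log2 fold change below 0, with a median of -0.22, and none passed the test. Their part in the values of Mthfd1, Psat1 and the other folate enzymes was not tested.

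The 12 synthetases and Xpot had the smallest differences of the 3 roles. Their 13 log2 fold changes ran from -0.15 to 0.034 with a median of -0.012, 3 above 0 and 10 below, and all 13 intervals lay within 1.5-fold either way. For 12 of the 13 the estimate itself was within 10%. Of the 6757 genes with a mean of at least 500, 6022 had an interval within 1.5-fold and 4816 an estimate within 10%. Of the 11 other cytosolic synthetases and cofactors, 11 and 9 did. Without number 2 the median of the 13 genes was -0.041, with 2 above 0 and 11 below. Iars, which charges tRNA with isoleucine, had the largest difference: it had 2339, 1712 and 2126 normalized counts with FcCD70, against 2241, 2279, 2269 and 2226 in untreated libraries. The untreated libraries were nearly identical and FcCD70 2 alone was far lower. Its log2 fold change was -0.15 with an interval of -0.45 to 0.15, and -0.016 without number 2. Eprs, the fused glutamyl- and prolyl-tRNA synthetase, had 4121, 3372 and 3699 with FcCD70 and 3793, 4088, 3876 and 3738 in untreated libraries, a log2 fold change of -0.075 that became 0.026 without number 2. Mars, for methionine, had 1279, 1419.8 and 1359 with FcCD70 and 1425, 1374, 1428 and 1514 in untreated libraries, a log2 fold change of -0.060 with an interval of -0.34 to 0.22. It was -0.11 without number 2 and -0.012 without number 1. Gars, Sars, Tars, Yars, Wars, Aars, Cars, Lars and Nars had log2 fold changes from -0.061 to 0.034, and from -0.13 (Nars) to 0.016 (Cars) without number 2.

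The titles also give each sample a number, whose meaning the labels do not state, and the same fit tested the number after the group was taken into account. This moderated F test called 15 genes of the table at an adjusted p under 0.05 (0.135%) and 0 of the 32 members. At an unadjusted p under 0.05 limma had 889 genes (8.02%) and 2 members, Trib3 and Cebpb. edgeR called 0 genes and DESeq2 237, with 0 members called by either and 1 member each at an unadjusted p under 0.05. The calls moved strongly with single libraries. Without FcCD70 2, 1828 genes were called (16.5%) and 4 members (12.5%), Trib3, Ddit4, Sesn2 and Mthfd2. Without untreated 2, 4269 genes were called (38.6%) and 8 members (25%), the same 4 with Atf4, Cebpb, Iars and Nars. Both fits keep 1 residual degree of freedom, and in both the share of members was below that of all genes.

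Trib3 had the smallest p of the members for the number (limma F = 7.87, unadjusted p = 0.00624, adjusted p = 0.278). Its 365 and 410.0 normalized counts in FcCD70 1 and 2 lay below the 590.0 of FcCD70 3, and the 324 and 398 of untreated 1 and 2 lay below the 629 and 581 of untreated 3 and 4. In Cebpb the value was lowest in number 1 of each group, at 49.7 with FcCD70 and 26.4 untreated (unadjusted p = 0.0357, adjusted p = 0.552, limma). Sesn2, which senses leucine and restrains mTORC1, ran the other way: 677, 520.1 and 472 with FcCD70, against 668, 647, 477 and 514 in untreated libraries (limma, adjusted p = 0.741). For the synthesis enzymes, the smallest p of the number belonged to Psat1, Mthfd2 and Shmt1, whose values stand above.

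Of the synthetases, Nars had 3041, 4046 and 2983 normalized counts with FcCD70 and 3389, 3403, 3217 and 3015 in untreated libraries. Its number 2 was the highest in each group. Lars had 1807, 1889 and 1511 with FcCD70 and 1758, 1915, 1693 and 1681 in untreated libraries. Cars, for cysteine, had 1055, 1024 and 855 with FcCD70 and 979, 1072, 902 and 958 in untreated libraries. In both, number 3 was the lowest of the FcCD70 libraries, and numbers 3 and 4 were lower than 1 and 2 in untreated libraries. Adjusted p-values of the number for these 3 genes were between 0.888 and 0.915 (limma).

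Described by position alone and with no test, libraries numbered 3 and 4 all lay above libraries numbered 1 and 2 in 4 members (Trib3, Mthfd2, Aldh18a1 and Wars; 12.5%), against 11.1% of all genes. They all lay below in 5 members (Sesn2, Cars, Gars, Lars and Yars; 15.6%), also against 11.1% of all genes. Other values moved with the number too. Libraries 3 and 4 were deeper (21200214 to 23527899 reads, against 18159685 to 19715108) and held lower proliferation sums (13217 to 16058, against 19514 to 27319). Myc, a transcription factor of growth, had 1249, 1549 and 2394 normalized counts with FcCD70 and 1438, 1379, 2466 and 2014 in untreated libraries. The part of depth and proliferation in the members' values was not tested.

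**Figure D4:**
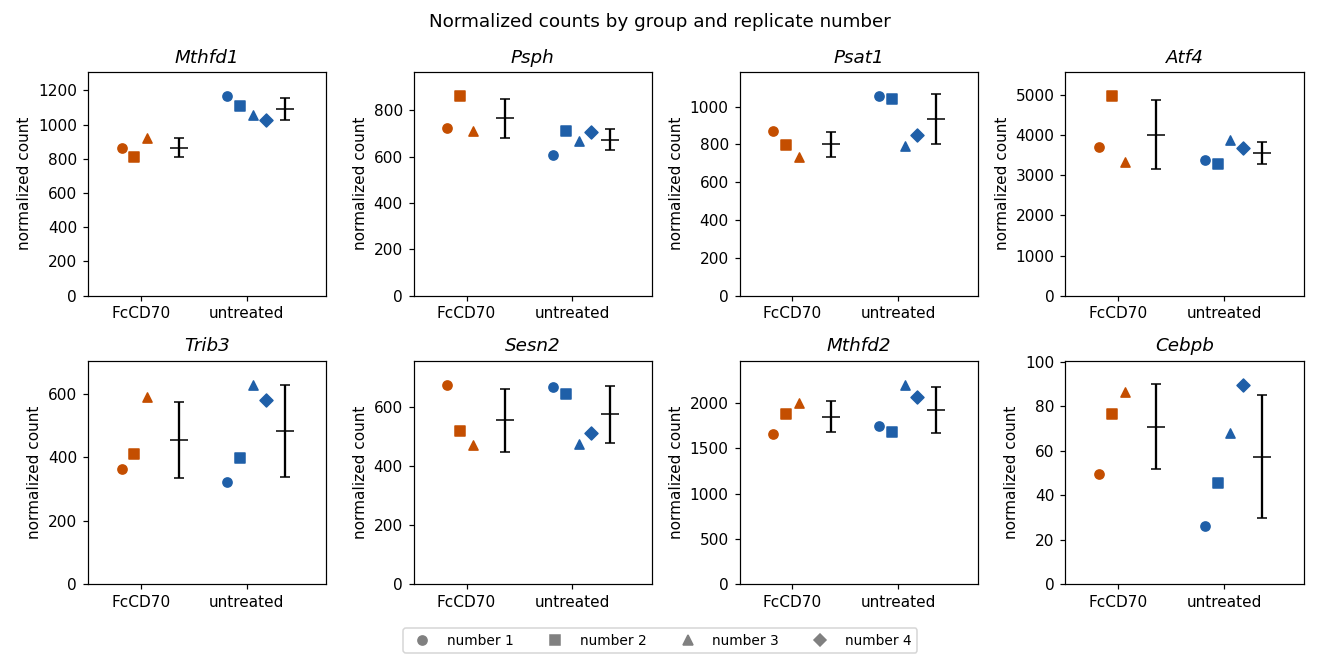
Normalized counts of 8 genes by group; symbols mark the replicate number of each library, and the horizontal marks with bars give the mean and SD of the group (n = 3 FcCD70, n = 4 untreated). Mthfd1 is the gene whose FcCD70 values (809.9 to 924) all lie under the untreated ones (1027 to 1169), and Trib3 is higher in FcCD70 3 and in untreated 3 and 4 than in the libraries numbered 1 and 2.

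Related gene lists had 0 genes past either test (limma). The kinases and subunits of the eIF2alpha step, upstream of Atf4, had 8 of 14 log2 fold changes above 0 with a median of 0.044. Eif2ak4, the amino acid sensing kinase GCN2, had 674, 389.8 and 527 normalized counts with FcCD70 and 661, 456, 477 and 564 in untreated libraries. Gcn1l1, its activator, had 1877, 1438 and 2606 with FcCD70 and 2267, 2454, 2432 and 2319 in untreated libraries, where FcCD70 libraries were both the highest and the lowest; its log2 fold change was -0.31, and -0.086 without number 2. The transporters, which bring amino acids in, had 4 of 12 above 0 with a median of -0.077, which rested on number 2: the medians within pairs 1 to 3 were 0.0014, -0.43 and -0.0056, and without number 2 the median was 0.015 with 6 of 12 above 0. In 2 of the 12 all FcCD70 libraries lay below all untreated ones (1.18% of all genes), and in 0 above. FcCD70 was lower in 3 of 3 pairs for 4 of the 12 (9.61% of all genes), and higher for 0. Slc7a6 had 1656, 1429 and 1818 with FcCD70 and 2106, 1928, 1829.6 and 1659.8 in untreated libraries, lower with FcCD70 in each of the 3 pairs at a log2 fold change of -0.26, and -0.18 without number 2. Slc7a1, a carrier of arginine and lysine, had 1134, 722 and 1080.3 with FcCD70 and 1159.8, 1287, 1116 and 1045 in untreated libraries. FcCD70 1 and 3 lay inside the untreated range, and the log2 fold change of -0.30 was -0.039 without number 2.

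Of the other genes linked to ATF4, 3 of 10 had a log2 fold change above 0, with a median of -0.058, and -0.035 without number 2. Gpt2, the mitochondrial alanine transaminase, had 46.6, 49.4 and 45.9 normalized counts with FcCD70 and 86.9, 117, 69.9 and 74.0 in untreated libraries. The groups did not overlap, and the log2 fold change of -0.90 had an interval of -1.59 to -0.22 (limma, unadjusted p = 0.0149, adjusted p = 0.9998). Cth, which makes cysteine, had 37.3, 57.3 and 15.0 with FcCD70 and 90.2, 116, 19.4 and 31.3 in untreated libraries, high in numbers 1 and 2 of each group. It was lower with FcCD70 in each of the 3 pairs, though the groups overlapped. The log2 fold change of Cth was -0.87 with an interval of -1.71 to -0.028 (limma, unadjusted p = 0.0442, adjusted p = 0.9998), and -0.80 without number 2. Stc2, a secreted stress protein, had 156, 226 and 487 with FcCD70 and 156, 279, 438 and 441 in untreated libraries, low in number 1 and high in numbers 3 and 4 (adjusted p of the number 0.0886, limma). Deptor, an inhibitor of mTOR, belongs to another list, that of mTORC1 amino acid sensing. It had 24.9, 33.7 and 32.6 with FcCD70 and 5.50, 14.1, 21.4 and 24.4 in untreated libraries. Its log2 fold change was 1.26, with an unadjusted p of 0.0378 and an adjusted p of 0.9998 (limma).

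The remaining 11 cytosolic synthetases and cofactors had 6 log2 fold changes above 0 and 5 below with a median of 0.016, the 17 mitochondrial synthetases 8 above and 9 below with a median of -0.0032, and the 16 genes of the other endoplasmic reticulum stress branches 6 above and 10 below with a median of -0.048. Without number 2 the medians of these lists were -0.038, with 2 of the 11 above 0, then 0.0013 and -0.043. Hspa5, the main chaperone of that compartment, had 4309, 5721 and 4101 normalized counts with FcCD70 and 5005, 4568, 4363 and 4179.5 in untreated libraries, highest in FcCD70 2. The other folate, glycine and proline enzymes had 6 of 16 above 0 with a median of -0.055, and -0.042 without number 2. The mTORC1 sensing list had 7 of 13 above 0 with a median of 0.0013, and 11 of 13 with a median of 0.068 without number 2.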

How the data were processed

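Poly(A) RNA libraries were made with a stranded Illumina TruSeq kit (per the labels). The submitters' processing notes name the build GRCm38.p4 and, without roles, DESeq2, HTSeq, SAMtools and TopHat2. The deposited signal is the authors' read count divided by a size factor per library, and since all values (100%, within 0.01) were multiples of a library's step, read counts were recovered. The deposited table's log2 fold changes, scores and p-values come from DESeq2 per the file headers; their log2 fold changes are coded untreated minus FcCD70 (correlation -0.94 with FcCD70 minus untreated over 11083 genes), so signs were turned. limma 3.58.1 (R 4.3.3; trend) was fitted on log2(value + 1) for all genes with a mean of at least 10, with group and number as terms, since the table is named as paired; fold changes on this scale are understated for low genes. It had 2 residual degrees of freedom. edgeR 4.0.16 and DESeq2 1.42.0 on the recovered reads were alternatives, beside pseudocount, filter, scaling and left-out libraries. Scripts were tested on simulated data. The members and lists were chosen with earlier results of these data known. Full values are given, per role, for the 3 members with the smallest p in each test, and for Atf4, Ddit3, Trib3, Chac1, Asns, Psat1, Shmt2 and Mthfd2 (the rule also names Phgdh, which was not analysed here); from other lists, up to 2 genes per direction and test with the smallest p were eligible, and Xpot and Hspa5 were chosen after their values were seen.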

Additional observations from a re-analysis of the deposited data

Results flagged for a closer look

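In untreated libraries, a sample lay far from the other 3 for 2 of the 34 members with a row. Chance meets this criterion in about 1 in 20 such groups, so about this many cases arise among 34 genes by chance alone. The share over all genes was not computed. Ddit3 had 535 normalized counts in untreated 2, against 694 to 706 in the other untreated libraries. Aldh18a1, which starts proline synthesis, had 1664 normalized counts in untreated 3, against 1569 to 1575 in the others.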

How the results depend on the processing

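Under 17 settings of the FcCD70 comparison, 0 members were called in each, and the members' median log2 fold change stayed between -0.046 and 0.016. Genes called in the whole table were 1 with DESeq2 on recovered reads and 0 to 19 when samples were left out, with 19 without number 2 and 6 without number 3. Without the replicate block 0 genes were called and the log2 fold change of Trib3 was -0.065, the one change of sign among settings that keep all samples. The number pairs the deposited analysis by its name only: deviations of same-numbered libraries correlated at 0.303, 0.0144 and 0.435 in pairs 1 to 3, and FcCD70 2 correlated best with untreated 1 (0.0263). When samples were left out, the log2 fold change ran from -0.27 to 0.11 for Trib3, -0.043 to 0.37 for Atf4, -0.065 to 0.21 for Ddit3, -0.16 to 0.071 for Asns, -0.17 to 0.026 for Eprs and -0.11 to 0.047 for Mthfd2. Over all settings, Mthfd1 (-0.45 to -0.29), Psat1 (-0.33 to -0.15), Psph (0.091 to 0.26), Ppp1r15a (0.11 to 0.35), Cebpb (0.081 to 0.81) and Cebpg (0.099 to 0.25) kept their sign. For the number, where 15 genes were called, no filter gave 0, TMM scaling 2, edgeR 0, DESeq2 237 and no group term 7; left-out samples gave 29 to 4269 genes and 0 to 8 members. The cause was not tested. Fits that leave out a sample keep few residual degrees of freedom, and members with few reads, such as Atf3, Chac1 and Pycr1, are limited by depth.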

Other observations

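Lars2, the mitochondrial leucyl-tRNA synthetase, held 1.32% to 1.95% of all reads in FcCD70 libraries and 1.01% to 1.93% in untreated libraries, far more than any cytosolic synthetase. It had 361239, 398502 and 272169 normalized counts with FcCD70 and 386333, 312178, 222978 and 207549 in untreated libraries, a log2 fold change of 0.18 with an adjusted p of 0.9998 (limma). The gene was singled out after its values were seen, and the part of any one exon or of repeated sequence in this count was not tested.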
